A study of Canis lupus familiaris with 6 samples.

Results

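The complement genes C1R, C1S, C3, CFB, CFI, CD46, CD55, CD59 and SERPING1 were examined in RasV12-transformed epithelial cells that grew either alone or among normal neighbours. Members were all non-control probes of the canine array whose gene name is one of these 9 symbols, and 4 of the 9 genes (C1R, C1S, C3 and CD59) were found in this way, with 12 probes. The array gives many probes an accession in place of a symbol, so the probes' description lines were also searched, a step added after the files had been seen. It found 7 more probes, 5 of them for CFI, SERPING1 and CD55 and 1 each for C1R and C3. In all 19 probes of 7 genes were described, out of 43603 probes on the array. CFB and CD46 were matched by neither search and were not analysed here.

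Complement is a cascade of plasma and cell surface proteins that marks cells and particles for removal. In the classical pathway the recognition molecule C1q carries the serine proteases C1r and C1s. C1r activates C1s, and C1s then cleaves the components that assemble the enzyme which splits C3, the protein at which all routes of activation meet. Inhibitors hold the cascade in check: the C1 inhibitor (SERPING1) blocks C1r and C1s, factor I (CFI) cuts C3b and C4b, CD55 speeds the decay of the C3-cleaving enzymes, and CD59 prevents the pore-forming complex from assembling on the membrane. Liver makes most plasma complement, but many epithelia, kidney tubule among them, transcribe some of these genes themselves.

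The cells were MDCK-pTR GFP-RasV12 cells, a derivative of the Madin-Darby canine kidney epithelial line in which tetracycline switches on oncogenic Ras fused to green fluorescent protein. Both groups received tetracycline for 24 h on collagen-coated dishes, and both were sorted for GFP, so that the normal cells of the mixed culture were to be left out. The alone group held 3 samples of RasV12 cells cultured by themselves, and the mixed group held 3 samples of RasV12 cells cultured with an excess of normal MDCK cells. The labels of mixed replicates 1 and 3 give 10 normal cells for each RasV12 cell. For mixed replicate 2 the label gives 100, whereas the design text gives the same 10 for all. In the labels' text on extraction the cells also carry a β-catenin transgene, which neither the titles nor the design text mention. The comparison of the groups asks which transcripts of RasV12 cells differ when normal cells surround them.

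Total RNA of each sample was measured on a 1-colour array with probes of 60 bases. The signal of a probe is given below as a percentage of the array's 75th percentile signal, which lay between 592.0 and 699.6 scanner units on the 6 arrays. On each array 60.8 to 66.4% of the probes were well above background by the scanner software's own criterion. The 3 arrays of each group were on a slide of their own, and the effects of slide and culture cannot be told apart. All 8 spike-in control probes that were well above background were higher in the mixed group, by 0.11 to 0.24 on the log2 scale, and scaling to them moved the median difference of all tested probes to -0.14. Nothing in the labels says that the replicates were separate cultures, so the p-values measure the spread between these samples, which may be technical. The number of arrays limits the precision of every value.

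Markers of cell types were read first, to describe the sorted cells. All 5 epithelial and kidney tubule markers on the array (CDH1, EPCAM, KRT18, CDH16 and PAX8) had a probe well above background on all 6 arrays. Of the 6 leukocyte markers, PTPRC and MS4A1 were above background on no array, whereas CD14 and CD68 were above it on all 6. CD3E was above it on 5 arrays, and CSF1R had a probe above it on 2. No hepatocyte marker had a probe above background on all 6 arrays, but ALB and SERPINA1 each had a probe above it on 5. Of the 4 fibroblast markers COL1A1 and PDGFRB had a probe above background on all 6 arrays while COL3A1 and PDGFRA were above it on none. The summed leukocyte signal ranged from 1123.5 to 1317.7 scanner units in the alone group and from 1131.9 to 1285.8 units in the mixed group. Most of it came from the CD68 probe, with 909 to 1060 units alone and 915 to 1030 units mixed. Of the 17 marker probes tested, limma called 0, beside 11.2% of all tested probes. At an unadjusted p under 0.05, limma counted 0 higher and 3 lower, without a count over all probes. The methods' t-test counted 0 higher and 2 lower, beside 3434 higher and 3881 lower of all 26535 tested probes. Normal MDCK cells share these markers, and their share in the sorted samples was not tested. In bulk samples of this kind, fewer cells that carry a transcript and less of it in each cell cannot be told apart.

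Probes of C1R, C1S, CFI and CD55 are shown here, 5′ to 3′, so that a reader can see which stretch of each transcript was measured. The C1R probes shown were at chr27:37960291-37960350 and at chr27:37952231-37953588, both on the plus strand, and the third C1R probe, A_11_P0000023004, is given below by its position alone. The C1S probes were at chr27:37976637-37976696 and chr27:37982765-37983699, on the minus strand. The CFI probe lay at chr32:29936786-29938874 on the minus strand, and the CD55 probe at chr7:6370085-6370144 on the plus strand. Coordinates are those of the array's own annotation (CanFam3.1). Where they span more than the 60 bases of the probe, as for C1R A_11_P185148 (1358 bases), C1S A_11_P150838 (935 bases) and CFI A_11_P059506 (2089 bases), the annotation places the probe in pieces with a gap between them.
C1R A_11_P155663: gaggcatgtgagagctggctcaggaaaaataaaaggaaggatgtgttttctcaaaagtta
C1R A_11_P185148: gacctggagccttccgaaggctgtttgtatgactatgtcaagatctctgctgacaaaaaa
C1S A_11_P066376: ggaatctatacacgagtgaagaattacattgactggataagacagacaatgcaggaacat
C1S A_11_P150838: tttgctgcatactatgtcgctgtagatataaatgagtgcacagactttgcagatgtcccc
CFI A_11_P059506: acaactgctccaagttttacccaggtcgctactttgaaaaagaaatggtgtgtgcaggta
CD55 A_11_P098671: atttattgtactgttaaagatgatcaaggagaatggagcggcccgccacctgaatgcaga

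Among the complement genes measured, the proteases C1R and C1S and the inhibitor CFI rose in mixed culture in limma's unpaired fit. CD55, CD59 and the only tested probe of C3 did not pass this test in either direction. The other C3 probes and SERPING1 were too dim to be tested. Testing required a signal clearly over background on the full set of arrays of either group, and 10 of the 19 probes (6 of 7 genes) met this. Limma called 5 of these 10 higher in mixed culture and 0 lower at an adjusted p under 0.05, beside 11.2% of all 26535 tested probes called in either direction, 5.5% called higher and 5.72% called lower. The C1S probe A_11_P150838 was tested only because it was bright in the mixed group. Thus a difference was built into its choice and its call adds nothing to the count. Among probes above background on all 6 arrays, which leave it out, limma called 4 of 9 members higher, beside 5.77% of 25530 probes, and the median log2 difference was 0.51 for these members and -0.003 for all such probes. The groups did not overlap at 5 of the 9, with mixed above alone at 4 and below it at 1, beside 37.4% of such probes (37.2% of all tested). By gene name alone, without the description search, 7 probes of 4 genes were tested, and 3 probes of 2 genes (C1R and C1S) were called higher. Probes of 1 gene measure the same gene, though the annotation does not list them all under 1 transcript. The counts therefore rest on 3 genes and not on 5 separate results. The members were chosen with earlier results of these data known, so these shares and the median describe the list and do not test it.

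These calls depended on the test and on single arrays. With the replicate number as a block, limma called 3 of the 10 higher (both C1S probes and CFI) and 1 lower (CD55), and neither C1R probe. Over all 26535 tested probes this fit called 1416 higher and 1409 lower. Of the 3 called higher, C1S A_11_P150838 again adds nothing to the count. The methods' t-test called 0 of the 10 after Benjamini-Hochberg adjustment, beside 826 of all 26535 tested probes. At an unadjusted p under 0.05 it counted 5 higher and 1 lower, beside 3434 higher and 3881 lower of all 26535 tested probes. Limma counted 6 higher and 1 lower at that threshold. Its count over all probes was not taken, so these limma counts lack a background and are not read as a result. Limma also called 0 of the 10 when alone replicate 2, alone replicate 3, mixed replicate 2 or mixed replicate 3 was left out. Under these omissions it called 7 to 24 of all tested probes, so 0 of the 10 says nothing particular about the members.

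**Figure D1:**
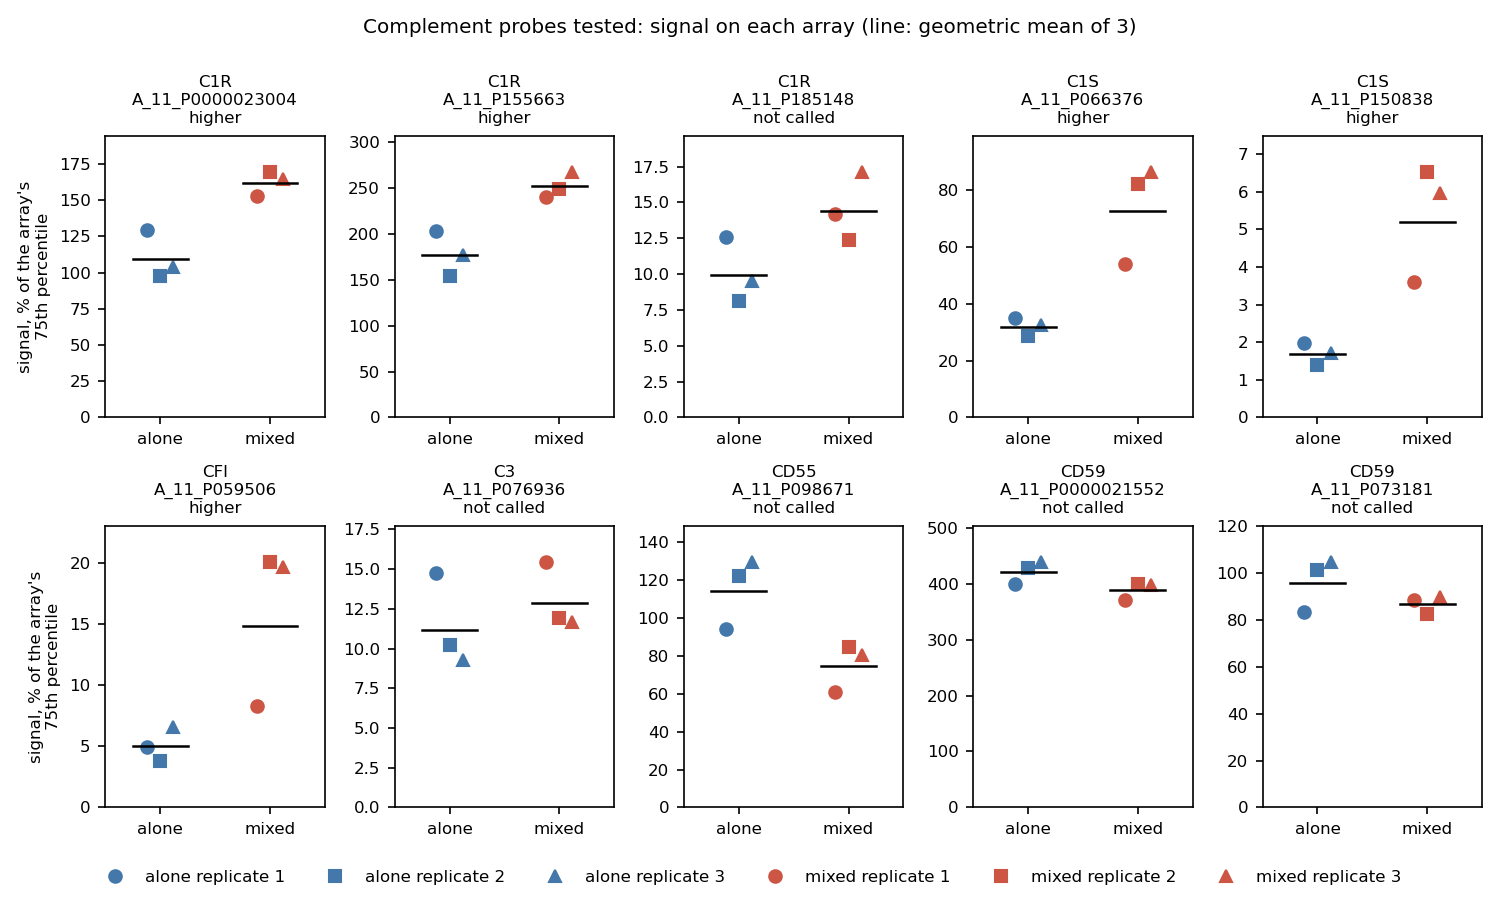
Signal of the 10 tested complement probes on each array, as a percentage of the array's 75th percentile (y axes start at 0 and differ between panels), for culture alone (blue) and mixed culture (red). Marker shapes give the replicate number and black lines the geometric mean of 3 arrays. The mixed arrays lie above all alone arrays for both C1S probes, 2 of the 3 C1R probes and CFI, below them for CD55, and among them for C3 and CD59.

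C1S encodes the protease that cleaves C4 and C2 in the classical pathway, and it showed a difference of more than 2-fold at the probe measured in both groups. At A_11_P066376 the signal was 35.0, 28.6 and 32.5% of the 75th percentile on the alone arrays and 54.1, 82.0 and 86.2% on the mixed arrays. Every mixed array was above every alone array, and mixed replicate 1 was the lowest of its group. On the log2 scale relative to the 75th percentile the level was -1.65 ± 0.15 alone and -0.46 ± 0.37 mixed (SD, n = 3 each), a difference of 1.19 with an SE of 0.19 (95% confidence interval 0.73 to 1.64, 2.28-fold; limma adjusted p = 0.0200). The second probe, A_11_P150838, gave 1.99, 1.39 and 1.70% alone and 3.59, 6.52 and 5.96% mixed. It was well above background on all 3 mixed arrays and on none of the alone arrays, so the alone level is only a bound. Set against the lowest signal well above background, the geometric mean of the mixed arrays was at least 2.88-fold higher at this probe. This bound has no error attached, and a difference was built into the choice of the probe, so it is a description only. The fitted difference was 1.63 with an SE of 0.25 (limma adjusted p = 0.0193), and it is no independent support, because the probe entered the test through the mixed arrays alone.

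Both C1S calls were lost when 1 of 4 arrays was left out. For A_11_P066376 limma's adjusted p was 0.0859 and 0.0882 after omission of alone replicate 2 or 3 and 0.0858 and 0.0882 after omission of mixed replicate 2 or 3, while the difference stayed between 1.06 and 1.40 over the 6 single omissions. For A_11_P150838 the adjusted p was 0.0822, 0.0840, 0.0799 and 0.0875 in the same order, with differences of 1.47 to 1.89. The call at both probes held without alone replicate 1 and without mixed replicate 1. Normexp background correction, which adds an offset to every signal, kept both calls and gave smaller differences, 0.98 and 0.38. Over all probes, the number of calls fell from 2978 to between 7 and 24 under the same 4 omissions.

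C1R encodes the protease that activates C1s. At A_11_P0000023004 (chr27:37960616-37960675, plus strand) the signal was 129, 97.7 and 104% of the 75th percentile alone and 153, 169 and 164% mixed. The groups did not overlap. The log2 level was 0.13 ± 0.21 alone and 0.70 ± 0.07 mixed (SD, n = 3 each), which is a difference of 0.57 with an SE of 0.12 (interval 0.28 to 0.85, 1.48-fold; limma adjusted p = 0.0349). At A_11_P155663, found through its description line, the values were 203, 155 and 177% alone and 240, 250 and 267% mixed, again without overlap. The difference was 0.51 with an SE of 0.11 (interval 0.24 to 0.78, 1.42-fold; limma adjusted p = 0.0394). The third C1R probe, A_11_P185148, gave 12.6, 8.11 and 9.54% alone and 14.2, 12.4 and 17.1% mixed. There alone replicate 1 was above mixed replicate 2, so the groups overlapped, and the difference of 0.54 with an SE of 0.19 did not pass the test (limma adjusted p = 0.110). The C1R probes thus gave differences of 0.51 to 0.57 and differed in the call.

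The C1R calls were near the threshold. With the replicate number as a block, limma's adjusted p was 0.0567 for A_11_P0000023004 and 0.0553 for A_11_P155663. Leaving out a single array ended the call at both probes except where alone replicate 1 was left out. The adjusted p was then 0.0633 to 0.127 for the first probe and 0.0723 to 0.140 for the second. Without alone replicate 1, A_11_P185148 was called as well (0.71, limma adjusted p = 0.0300). In the RefSeq gene table, which is of another genome build, no gene starts between C1R and C1S on chromosome 27, and the array places the probes of the neighbours on opposite strands.

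**Figure D2:**
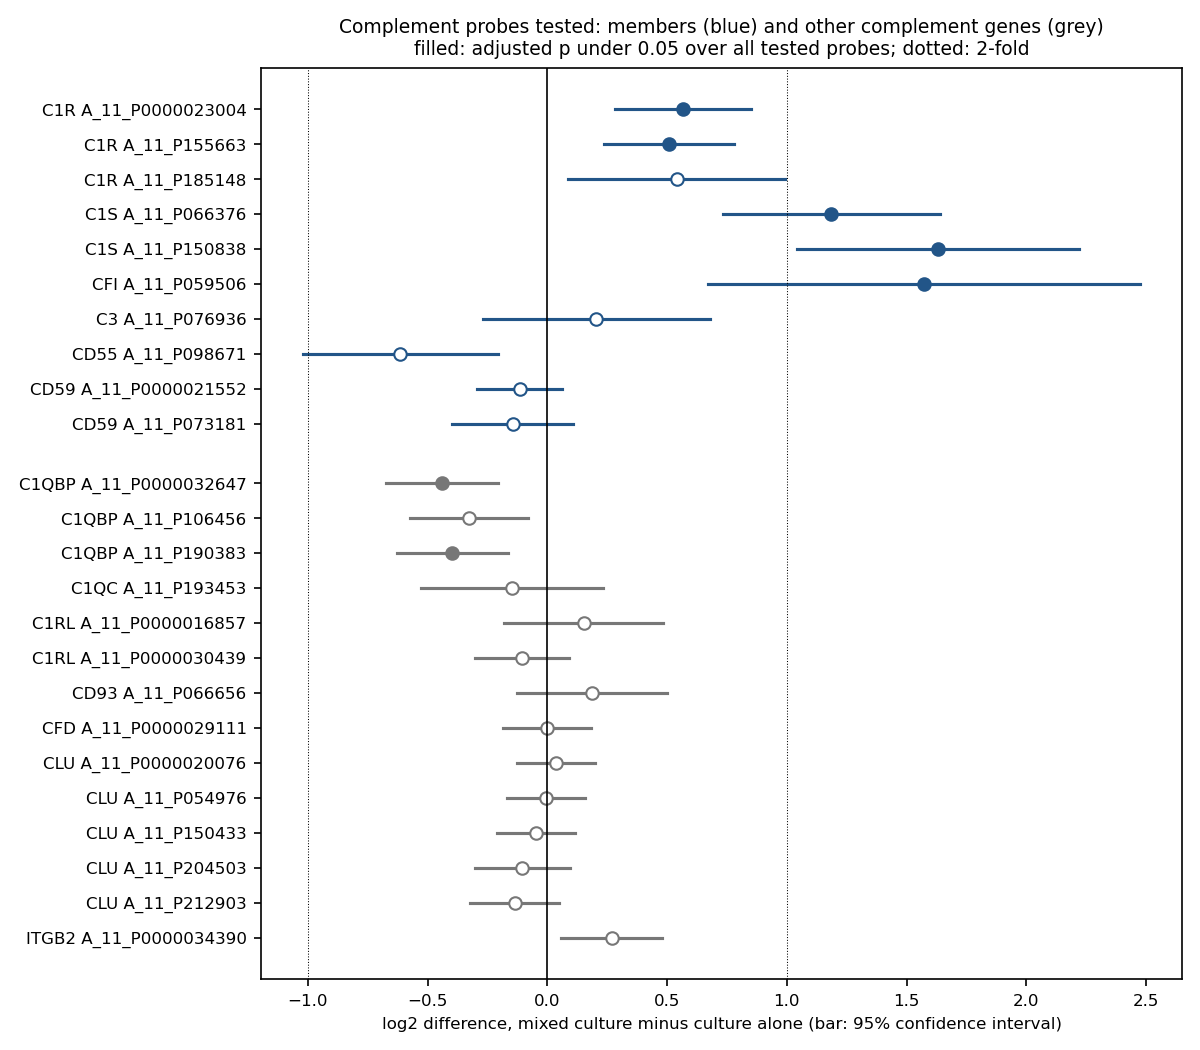
Log2 difference, mixed culture minus culture alone, of each tested probe of the member genes (blue) and of other complement genes (grey), with 95% confidence intervals. Filled points passed an adjusted p of 0.05 over all tested probes. The intervals of both C1S probes and of CFI lie above 0.67, those of C3 and CD59 include 0, and the filled grey points are those of C1QBP.

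CFI encodes factor I, a protease that inactivates C3b and C4b together with a cofactor, and its probe showed the widest spread of the called members. At A_11_P059506 the signal was 4.96, 3.81 and 6.58% of the 75th percentile alone and 8.31, 20.1 and 19.7% mixed. All mixed arrays were above all alone arrays, but mixed replicate 1 was nearer to the alone arrays than to the other mixed ones. The log2 level was -4.33 ± 0.40 alone and -2.75 ± 0.73 mixed (SD, n = 3 each). The difference was 1.57 with an SE of 0.38 (interval 0.67 to 2.48, 2.98-fold; limma adjusted p = 0.0461). The call was lost under quantile normalization (limma adjusted p = 0.0502) and on leaving out any single array other than mixed replicate 1, with an adjusted p of 0.0633, 0.145 and 0.104 after omission of alone replicate 1, 2 or 3 and of 0.144 and 0.146 after omission of mixed replicate 2 or 3. Normexp background correction kept the call and lowered the difference to 0.77.

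The second CFI probe, A_11_P168523 (chr32:29963077-29963136, minus strand), was well above background on no array and was not tested. Its processed signal was 3.18, 2.87 and 2.24 scanner units alone and 4.06, 8.92 and 10.1 mixed. Each of these was below the lowest signal that was well above background on its own array (11.8 to 14.6 units in the mixed group), where values have no measured order, so no direction was drawn from this probe.

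SERPING1 encodes the C1 inhibitor, which inactivates C1r and C1s. Both of its probes were found through the description line, and neither reached that level throughout a group, so neither was tested. At A_11_P0000039091 (chr18:38570362-38570421, minus strand) the processed signal was 4.55, 4.93 and 6.64 scanner units alone and 11.6, 28.1 and 32.3 mixed. Mixed replicates 2 and 3 were well above background there, and mixed replicate 1 and the alone arrays were not. At A_11_P073356 (chr18:38575883-38575942, minus strand) the signal was 6.68, 8.52 and 3.99 units alone and 4.59, 9.68 and 19.9 mixed. This probe was above background on mixed replicate 3 alone, and its groups overlapped.

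**Figure D3:**
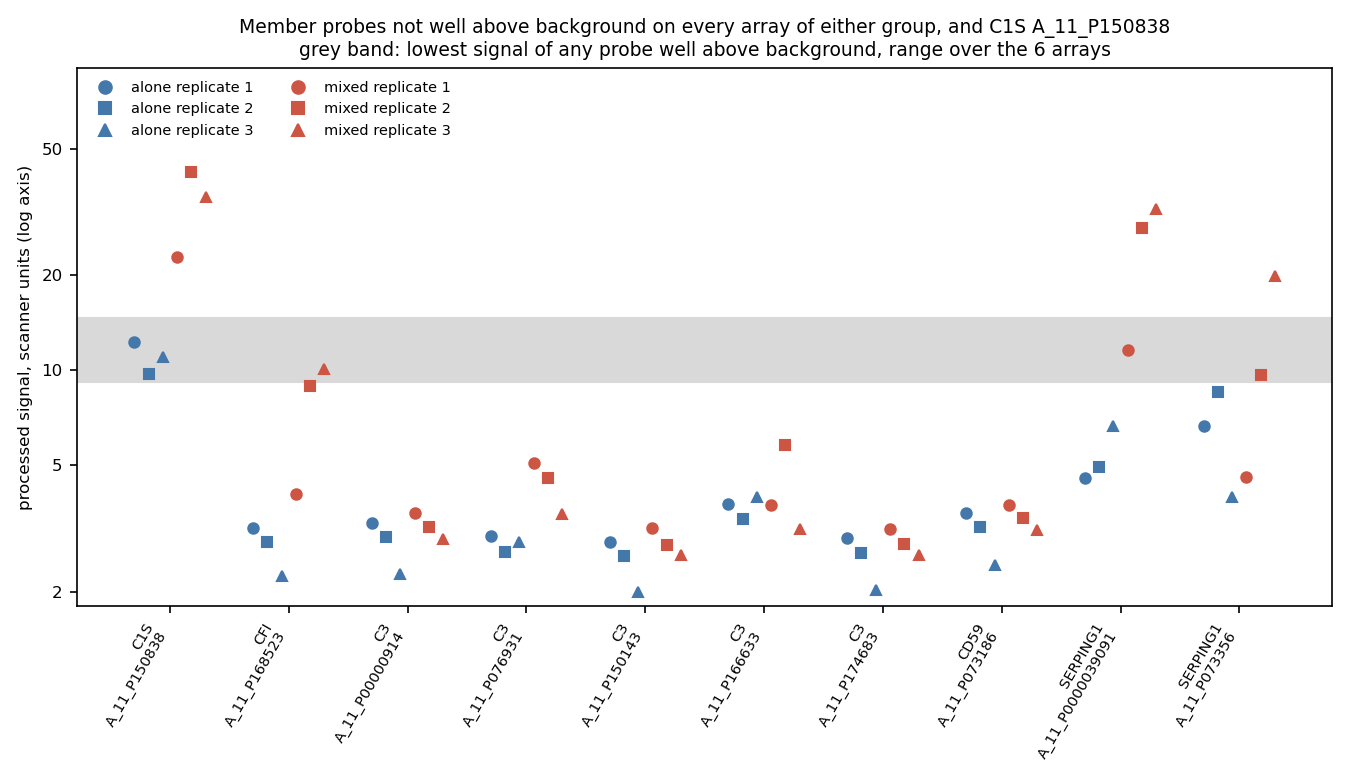
Processed signal in scanner units (log axis) on each of the 6 arrays for the 9 member probes that were not tested and for C1S A_11_P150838, which was dim in the alone group. The grey band spans the lowest signal of any probe well above background, from 9.15 to 14.6 units over the arrays. SERPING1 A_11_P0000039091 has mixed replicates 2 and 3 above the band, while all points of the C3 and CD59 probes lie below it. All mixed points are above all alone points for C1S A_11_P150838, SERPING1 A_11_P0000039091, CFI A_11_P168523 and C3 A_11_P076931, and the last 2 of these were above background on no array.

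C3 encodes the central component of the cascade, and 6 probes carried its name or description. Only A_11_P076936 was well above background, and it was so on all 6 arrays. It gave 14.8, 10.2 and 9.30% of the 75th percentile alone and 15.4, 11.9 and 11.7% mixed, with overlapping groups. The difference was 0.20 with an SE of 0.20 (interval -0.27 to 0.68; limma adjusted p = 0.523), an interval that leaves room for a change of either sign. The other 5 C3 probes were above background on no array, with processed signals of 2.0 to 5.81 scanner units. At A_11_P076931 the mixed values (5.09, 4.55 and 3.52 units) were all above the alone values (3.0, 2.67 and 2.86 units), but at background such values have no measured order. Among these, A_11_P166633 (chr20:53593486-53593694, plus strand), overlaps A_11_P076936 (chr20:53593481-53593689, plus strand). Capitals below mark the 55 bases that the pair shares.
C3 A_11_P076936: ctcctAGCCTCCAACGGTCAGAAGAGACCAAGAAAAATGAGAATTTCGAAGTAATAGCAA
C3 A_11_P166633: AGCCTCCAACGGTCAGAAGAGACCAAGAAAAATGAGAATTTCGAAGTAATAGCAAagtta
Each probe has 5 bases that the other lacks. A_11_P166633 gave 3.78, 3.38 and 3.98 units alone and 3.74, 5.81 and 3.15 mixed, at background on all arrays, whereas its partner gave 60 to 97.4 units. The probes for C3 therefore did not give the same account of whether the transcript was measured. What sets this pair apart was not tested. The array's annotation lists A_11_P076936 under another transcript than the other C3 probes found by gene name.

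CD55 encodes the decay-accelerating factor of the cell surface, and its values went the other way. The signal of A_11_P098671 was 94.4, 122 and 129% of the 75th percentile alone and 61.0, 84.7 and 80.7% mixed. Every mixed array was below every alone array. The log2 level was 0.19 ± 0.24 alone and -0.42 ± 0.26 mixed (SD, n = 3 each), and the difference of -0.61 with an SE of 0.17 (interval -1.02 to -0.21) did not pass the test (limma adjusted p = 0.0654). With the replicate number as a block it did pass (limma adjusted p = 0.0316), as it did with normexp background correction (limma adjusted p = 0.0398). It also passed with a prior variance that depends on the level (limma adjusted p = 0.0459) and without alone replicate 1 (0.0260). It did not pass under quantile normalization (limma adjusted p = 0.0657), with spike-in scaling (0.111) or with no filter on dim probes (0.172). Nor did it pass on leaving out any other single array (limma adjusted p between 0.123 and 0.196). The methods' t-test called it only without adjustment. Counting that call, CD55 was called in 5 of 17 alternatives.

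CD59 encodes the membrane protein that blocks pore formation, and its probes differed little between the groups. A_11_P0000021552 (chr18:33998887-33998946, plus strand) gave 399, 428 and 438% of the 75th percentile alone and 371, 399 and 397% mixed. A_11_P073181 (chr18:33998222-33998281, plus strand) gave 83.4, 101 and 105% alone and 88.4, 82.3 and 89.8% mixed. The groups overlapped at both. The differences were -0.12 (interval -0.30 to 0.06; limma adjusted p = 0.334) and -0.15 (interval -0.40 to 0.11; limma adjusted p = 0.389). The third probe, A_11_P073186, was above background on no array, with 2.43 to 3.75 scanner units.

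Other genes of the complement system gave a background for these values. A list of further components, receptors and regulators had 50 probes of 30 genes on the array, of which 14 probes of 7 genes were tested. Limma called 0 higher and 2 lower, beside 5.5% and 5.72% of all tested probes. At an unadjusted p under 0.05, limma and the methods' t-test each counted 1 higher and 3 lower. The median difference over the 14 was -0.08. Of the other probes, 27 were above background on no array, and 9 were above it on some. Of the recognition subunits that carry C1r and C1s, made in tissue mainly by macrophages, C1QA was above background on no array and C1QB on 4 of the 6, and neither was tested. For C1QC, 1 of 3 probes was tested (A_11_P193453, above background on 5 arrays), with a difference of -0.15 and an SE of 0.16 (limma adjusted p = 0.567).

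Both lower calls belonged to C1QBP, a mitochondrial protein also described as a receptor for the globular heads of C1q. At A_11_P0000032647 the signal was 1662, 1827 and 1855% of the 75th percentile alone and 1172, 1407 and 1371% mixed. At A_11_P190383 it was 968, 1047 and 1087% alone and 702, 836 and 823% mixed, and at both probes the groups did not overlap. The differences were -0.44 with an SE of 0.10 (limma adjusted p = 0.0386) and -0.40 with an SE of 0.10 (limma adjusted p = 0.0475). The third C1QBP probe, A_11_P106456, gave -0.33 with an SE of 0.10 and did not pass (limma adjusted p = 0.0881). The 2 calls were lost under quantile normalization and on leaving out any single array other than alone replicate 1, with limma's adjusted p between 0.0668 and 0.138 for A_11_P0000032647 and between 0.0837 and 0.160 for A_11_P190383.

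The mixed samples were not alike in size of difference. At all 5 called member probes mixed replicate 1 was the lowest mixed array, and at 4 of them alone replicate 1 was the highest alone array. Among all 1459 probes called higher, mixed replicate 1 was the lowest of its group at 49.7% and alone replicate 1 the highest of its group at 67.0%. Mixed replicate 2, whose label gives another cell ratio, was close to mixed replicate 3 at both C1S probes and at CFI. Without mixed replicate 2 the differences at the 5 called member probes were 1.10 and 1.47 for C1S, 0.54 and 0.52 for C1R and 1.36 for CFI. Their sign could not change, because every mixed array was above every alone array at these probes. Limma called 0 of the 5 without this array, and 9 of all probes tested then.

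**Figure D4:**
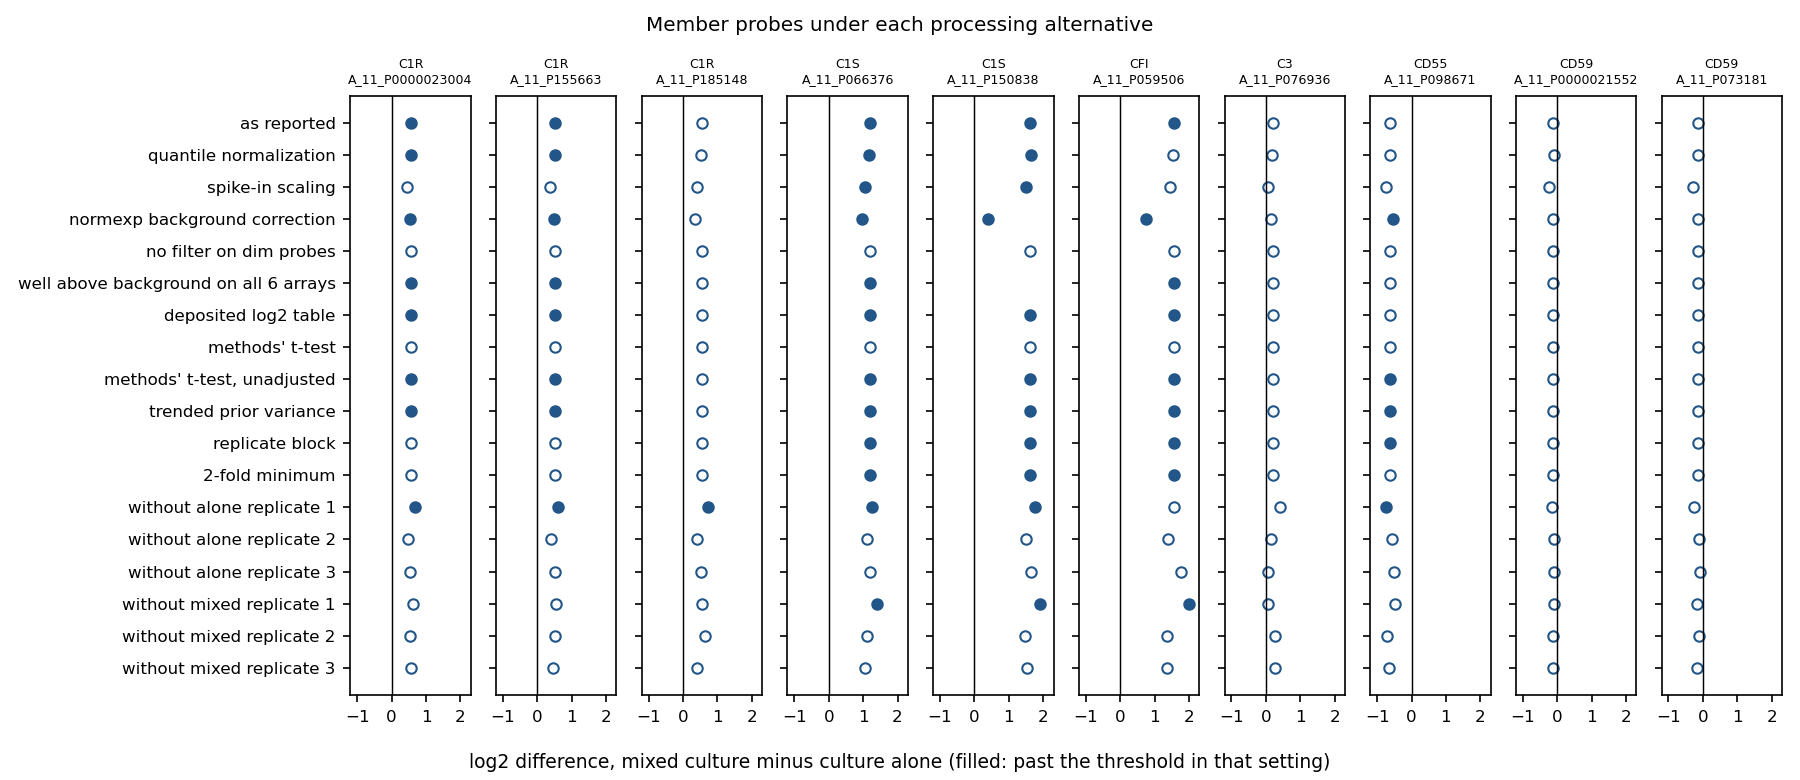
Log2 difference, mixed culture minus culture alone, of the 10 tested member probes (columns) under each way of processing the data (lines of points). Filled points were past the threshold in that setting, and C1S A_11_P150838 has no point where a probe had to be well above background on all 6 arrays. Every point of C1S, C1R and CFI lies above 0 and every point of CD55 and CD59 below it, whereas which points are filled varies between settings. Settings that change only the test or the filter on probes repeat the reported difference, so those points could not change side.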

How the data were processed

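For each of the 6 arrays the authors deposited the scanner software's intensity values: the processed signal, the mean signal and the local background of every spot. A deposited table of log2 values equals the log2 processed signal minus the array's 75th percentile within 0.001 (median offset). The paper names no normalization for the arrays. Here control spots were dropped, as were the 6 to 12 spots per array flagged as outliers, repeated spots of a probe were averaged, and each array's 75th percentile was subtracted on the log2 scale. Groups came from the sample titles. Mixed culture was compared with culture alone in all 6 arrays by lmFit and eBayes of limma 3.58.1 under R 4.3.3. The test was two-sided with a threshold of 0.05, and p-values were adjusted (Benjamini-Hochberg) over 26535 probes, those with a signal well above background throughout the alone group, the mixed group or both. The procedure was tested on simulated data. The methods' t-test is the unpaired two-tailed Student test, which the study names, with corrected p-values, for its arrays of cells that also carry the β-catenin transgene. It was run here as an alternative and not as the main test. A bound takes, on each dim array, the higher of the probe's own signal and the lowest signal well above background. Python 3.11.15 with pandas 2.3.3, numpy 2.4.6 and matplotlib 3.10.9 handled tables and plots.

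All probes of the members are named, with the other complement genes past the threshold and the marker genes. The members and lists were chosen with earlier results of these data known, and the description search was added after the files were seen. The main fit was unpaired. For the blocked fit the replicate numbers of the titles were taken to pair the samples. The deviations of same-numbered arrays from their group means correlated at 0.349, 0.162 and 0.296 over 26529 probes. Alone replicate 2, however, correlated at 0.238 with mixed replicate 3. Same-numbered arrays also held the same position on their slides, so pairing of samples and position cannot be told apart. Blocked values stand beside the results whose call they change. RefSeq's gene table held 8 of the 9 members and was used for names and neighbours only. Promoters and protein sequences were not used here, so the planned motif search and the placement of probes in proteins were not run.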

Additional observations from a re-analysis of the deposited data

How the results depend on the processing

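Directions held at all 10 tested member probes and at both called C1QBP probes under every alternative that gave a value, and the calls did not. Much of this was fixed beforehand. The filters, the t-test, the level-dependent prior variance, the block and the 2-fold minimum leave the difference itself unchanged. Where the groups did not overlap, leaving out 1 array could not reverse the direction either. Over all tested probes 2978 were called. Scaling to the spike-in controls gave 651, no filter on dim probes 12, the methods' t-test 826, or 7315 at an unadjusted p, a 2-fold minimum 300, and leaving out 1 array 7 to 7335. Of the member probes found by gene name 3 were called, against 0 with no filter on dim probes, 0 by the methods' t-test and 0 to 4 on leaving out 1 array. With the description search 5 were called, against 2 with spike-in scaling (both C1S), 0 with no filter, 0 by the methods' t-test, 3 with a 2-fold minimum and 0 to 6 on leaving out 1 array. Of the other complement probes 2 were called, against 0 with quantile normalization, spike-in scaling, no filter, the methods' t-test or a 2-fold minimum, 4 by the methods' t-test at an unadjusted p, and 0 to 4 on leaving out 1 array. With the replicate number as a block 2825 probes were called, 2091 of them also called without it. The block ended the calls of both C1R probes, brought in CD55, and changed no other member's call. The cause of these losses was not tested. Slide as a block could not be fitted, since each slide holds 1 group. C1S A_11_P150838 gave no value where a probe had to be above background on all 6 arrays. Its calls add nothing to the counts above, because it passed the filter only through the mixed arrays. Probes near background have no measured order below the lowest signal well above background.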
